A study of Homo sapiens with 12 samples.

Results

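A set of 10 genes that encode cytosolic and mitochondrial heat shock proteins and their partners was followed in the human hepatocellular carcinoma line HepG2 through 240 min of insulin stimulation. They were chosen by name as the rows of the count table for HSPA1A, HSPA1B, HSPA8, HSP90AA1, HSPH1, DNAJB1, BAG3, HSPB1, HSPD1 and HSPE1, so that 10 of the 26364 named genes were taken. RNA was sequenced at 0, 5, 10, 30 and 240 min of insulin, with 2 replicates per time, and chromatin bound by the insulin receptor (IR) was mapped by ChIP-seq in 1 library. The labels name no genetic change in the cells, and the 0 min libraries served as the unstimulated control. No library without insulin was taken at the later times. Effects of insulin and of time since washout therefore cannot be told apart. By the study's methods, cells for insulin experiments were kept for 2 days in medium without supplements. They then had 2 days at a physiologic or a pathologic insulin concentration, before washout and acute stimulation. The labels do not say which of these concentrations the libraries had. Times were taken from the library titles, because the deposited treatment text reads 3 nM insulin and 5 min throughout, even where a title says 0 min.

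Heat shock proteins are chaperones that bind unfolded or partly folded proteins. HSP70 proteins cycle between ATP-bound and ADP-bound states: J-domain proteins deliver clients and trigger ATP hydrolysis, nucleotide exchange factors release the client, and HSP90 takes on later folding steps of receptors and kinases. Most genes of the group are induced by heat shock factor 1 (HSF1), which binds repeats of the pentamer nGAAn, called heat shock elements, while HSPA8 and the mitochondrial pair HSPD1 and HSPE1 are also abundant in unstressed cells.

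At 240 min of insulin, 6 of the 10 genes were lower than at 0 min and none was higher, where 41% of all genes tested passed, 20.4% lower and 20.6% higher. By gene counts, HSPA1A, a stress-inducible HSP70, fell by 37.5%, HSPH1, the HSP110 exchange factor, fell by 29.2%, and HSPB1, the small chaperone HSP27, fell by 27.6%. HSP90AA1, the inducible HSP90, BAG3, an HSP70 co-chaperone of selective autophagy, and HSPA1B fell by 14.9% to 16.6%. These 3 no longer passed when libraries were scaled by spike-in RNA. The median log2 fold change of the 10 members was then -0.37, against -0.25 in the main analysis. Of all genes tested, 7.65% passed under that scaling. The other 4, HSPA8, DNAJB1, HSPD1 and HSPE1, did not pass the test at 240 min against 0 min. No member passed at 5, 10 or 30 min.

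The upstream sequences are shown first, since HSF1 binds the heat shock elements described above. RefSeq start sites of all 10 genes were matched, giving 14 windows of 300 bases, from 250 before to 50 after a start. An element was counted as 3 units in the forms GAANNTTCNNGAA or TTCNNGAANNTTC, where N is any base, and a pair of units as GAANNTTC or TTCNNGAA, on both strands, so that each element also holds overlapping pairs. Elements of 3 units were present in 3 of the 14 windows, those of HSPA8, HSP90AA1 and HSPD1, against 0.490% of all 35116 RefSeq windows. Pairs of units were present in 8 of the 14 windows, of 7 genes, against 13.5% of all windows. The 250 bases before the start are printed 5′ to 3′ on the gene's strand of GRCh38.p14, with 3-unit elements in capitals for the first 3 genes and unit pairs in capitals for HSPA1A, HSPA1B and DNAJB1. The first 3 are the windows with an element, and the next 2 are the near-identical HSP70 pair whose counts differed at 240 min. The last is the 1 member called higher at 240 min than at 30 min, a call lost in some alternatives given below.

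HSPA8, chr11:123062137-123062386, minus strand: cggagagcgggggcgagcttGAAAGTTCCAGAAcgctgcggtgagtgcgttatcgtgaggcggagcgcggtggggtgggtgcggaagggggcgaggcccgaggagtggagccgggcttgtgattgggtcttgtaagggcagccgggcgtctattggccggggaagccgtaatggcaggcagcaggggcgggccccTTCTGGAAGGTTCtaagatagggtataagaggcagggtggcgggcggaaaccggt
HSP90AA1, chr14:102087045-102087294, minus strand: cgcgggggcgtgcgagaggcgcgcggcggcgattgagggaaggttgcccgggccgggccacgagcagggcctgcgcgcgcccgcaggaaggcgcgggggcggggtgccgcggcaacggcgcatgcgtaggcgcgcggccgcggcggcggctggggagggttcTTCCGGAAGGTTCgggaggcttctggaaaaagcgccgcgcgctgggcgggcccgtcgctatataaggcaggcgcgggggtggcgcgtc
HSPD1, chr2:197499841-197500090, minus strand: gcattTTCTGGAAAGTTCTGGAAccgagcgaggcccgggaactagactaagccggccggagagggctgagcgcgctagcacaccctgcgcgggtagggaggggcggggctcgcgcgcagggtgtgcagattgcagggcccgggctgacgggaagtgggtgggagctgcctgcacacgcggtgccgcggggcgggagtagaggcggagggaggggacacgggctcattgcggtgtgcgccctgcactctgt
HSPA1A, chr6:31815293-31815542, plus strand: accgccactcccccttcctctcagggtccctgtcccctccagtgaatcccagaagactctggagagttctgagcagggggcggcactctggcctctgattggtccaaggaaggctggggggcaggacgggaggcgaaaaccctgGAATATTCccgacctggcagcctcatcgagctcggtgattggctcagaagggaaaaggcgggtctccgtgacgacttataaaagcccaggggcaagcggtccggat
HSPA1B, chr6:31827488-31827737, plus strand: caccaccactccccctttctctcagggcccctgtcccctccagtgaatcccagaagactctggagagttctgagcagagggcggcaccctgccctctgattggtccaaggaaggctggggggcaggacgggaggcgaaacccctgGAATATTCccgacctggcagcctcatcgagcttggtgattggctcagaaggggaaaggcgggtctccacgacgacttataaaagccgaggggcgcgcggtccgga
DNAJB1, chr19:14518398-14518647, minus strand: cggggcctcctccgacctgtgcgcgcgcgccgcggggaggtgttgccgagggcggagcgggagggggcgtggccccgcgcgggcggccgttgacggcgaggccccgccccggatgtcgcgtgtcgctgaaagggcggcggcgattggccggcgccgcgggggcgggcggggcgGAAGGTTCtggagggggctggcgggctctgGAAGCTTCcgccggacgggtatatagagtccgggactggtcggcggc

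The HSPA8 elements began at positions -230 and -55 from the start, and that of HSP90AA1 began at position -88. In the HSPD1 window 2 elements overlapped in a run of 18 bases. That run lies 294 bases upstream of the start of HSPE1, which is transcribed the other way from the same region, and the 300-base HSPE1 window itself held no pair of units. HSPA1A and HSPA1B held 1 pair each, at positions -106 and -105, and their 300-base windows were identical at 277 of 301 aligned positions (92.0%). The windows of HSPH1, BAG3 and HSPE1 held neither form. A match of letters describes the sequence and does not show that a factor binds there. The exact match leaves out imperfect elements, so a window without a match may still hold one.

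Expression was measured as raw gene counts, made by the authors with STAR and featureCounts on hg19, and values below are TMM-scaled CPM, which divides each count by the size of its library. Libraries held 18347109 to 45005769 gene counts. The lowest count of a member was 490, for HSPA1A, and the highest was 76463, for HSP90AA1. All 10 members were among the 13852 genes kept after edgeR's low-count filter. Fold changes, standard errors and p-values came from edgeR's quasi-likelihood test, fitted to all 10 libraries together, with Benjamini-Hochberg adjustment over all 13852 genes and a threshold of 0.05. The labels do not say that replicates came from separate cultures, so p-values measure the spread between these samples, which may be technical. In bulk RNA a change in all cells and a change in a share of the cells cannot be told apart. Of the hepatocyte markers, all 8 were expressed, at a summed 40179 to 50712 TPM (transcript abundance scaled for length and depth) per library. Of 4 markers of other cells, the leukocyte gene PTPRC had no counts, the endothelial PECAM1 and the fibroblast COL1A1 were at 1.72 TPM or less, and lysozyme (LYZ), a myeloid marker, was high in every library at 7978 to 10479 TPM.

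Levels between genes are compared as TPM, which corrects for transcript length. HSPD1, the mitochondrial chaperonin HSP60, was the most abundant, with a median of 2132 TPM over the 10 libraries (2078 to 2235). The constitutive cytosolic HSP70 HSPA8 followed at 1568 TPM (1433 to 1622) and HSP90AA1 at 1529 TPM (1294 to 1574), and the ranges of these 2 overlapped. HSPE1, the HSP10 co-chaperonin that caps HSP60, had a median of 516 TPM (498 to 559). The next 5 genes overlapped from neighbour to neighbour: DNAJB1 at a median of 196 TPM, HSPA1B at 185 TPM, HSPA1A at 162 TPM, HSPH1 at 129.6 TPM and HSPB1 at 118 TPM. BAG3 was lowest, at 27.2 TPM (24.1 to 30.04), without overlap with HSPB1. The stress-inducible genes were thus expressed at 0 min, before the acute stimulation with insulin.

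**Figure D1:**
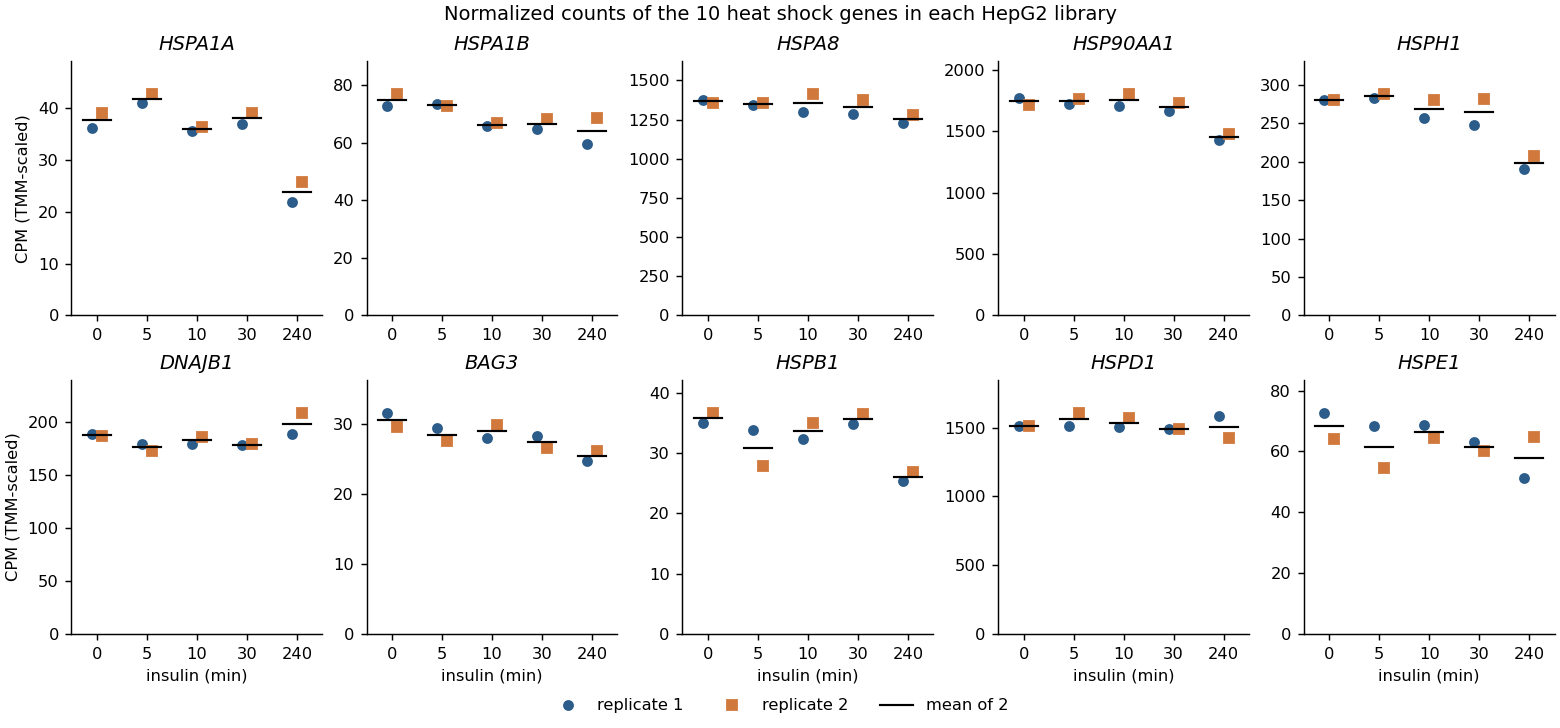
Normalized counts (CPM, TMM-scaled, linear axes from 0) of the 10 heat shock genes at each time of insulin in min, 1 point per library and a line at the mean of 2 replicates. The HSPA1A points at 240 min, 21.9 and 25.8 CPM, lie below the 35.6 to 42.7 CPM of the other 8 libraries, whereas the HSPD1 points at 240 min, 1425 and 1582 CPM, lie on both sides of the 0 min points.

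Among the HSP70 chaperones, HSPA1A changed most. Its level was 36.3 and 39.2 CPM at 0 min, 41.1 and 42.7 CPM at 5 min, 35.6 and 36.3 CPM at 10 min, 37.1 and 39.2 CPM at 30 min, and 21.9 and 25.8 CPM at 240 min. The 240 min libraries lay below all others, and the 8 earlier libraries ranged from 35.6 to 42.7 CPM. The difference of 240 min from 0 min was -0.68 on the log2 scale (SE 0.075, adjusted p = 8.58e-07, edgeR). It passed the test in all 10 alternative analyses that kept HSPA1A as a gene of its own, and without any single library. The size of the fall differed between those 10 alternatives, from -0.79 to -0.52. By TPM the mean was 173.9 at 0 min and 121.5 at 240 min.

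HSPA1B encodes a protein almost identical to that of HSPA1A from a neighbouring gene. Its level was 72.8 and 76.8 CPM at 0 min, 73.4 and 72.7 CPM at 5 min, 65.7 and 66.9 CPM at 10 min, 64.6 and 68.1 CPM at 30 min, and 59.5 and 68.5 CPM at 240 min. The 240 min replicates were 64.02 ± 6.35 CPM (SD, n = 2), below both 0 min replicates but overlapping the 10 and 30 min libraries. The difference from 0 min was -0.23 (SE 0.061, adjusted p = 0.00469, edgeR) by counts, and -0.38 by TPM. It was no longer called without the second 0 min replicate (-0.19, adjusted p = 0.0727) or without the first 240 min replicate (-0.13, adjusted p = 0.148). Against 0 min the unadjusted p of HSPA1B was 0.00781 at 10 min and 0.00835 at 30 min, neither of which held after adjustment (adjusted p = 0.711 and 0.404, edgeR).

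The split of reads between these 2 genes needs care. On hg19, HSPA1A lies at chr6:31783291-31785719 and HSPA1B at chr6:31795512-31798031, both on the plus strand. Of the 50-base windows in the HSPA1A transcript, 75.1% also occur in HSPA1B, and 71.6% of the HSPA1B windows occur in HSPA1A, so that a 50-base read often cannot be placed. Whether reads with several places were counted is not given in the sources used here. By gene counts, the ratio of HSPA1A to HSPA1B was 0.498 to 0.588 in the 8 libraries from 0 to 30 min and 0.368 and 0.376 at 240 min. By the authors' StringTie TPM it was 0.853 to 0.886 in the same 8 libraries and 0.780 and 0.768 at 240 min. The ratio was lower at 240 min on both scales, and the cause of the difference between the scales was not tested. With the counts of both genes summed, the difference of 240 min from 0 min was -0.36 (SE 0.060, adjusted p = 7.69e-05, edgeR), and that of 240 min from 30 min was -0.25 (SE 0.061, adjusted p = 0.00264).

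**Figure D2:**
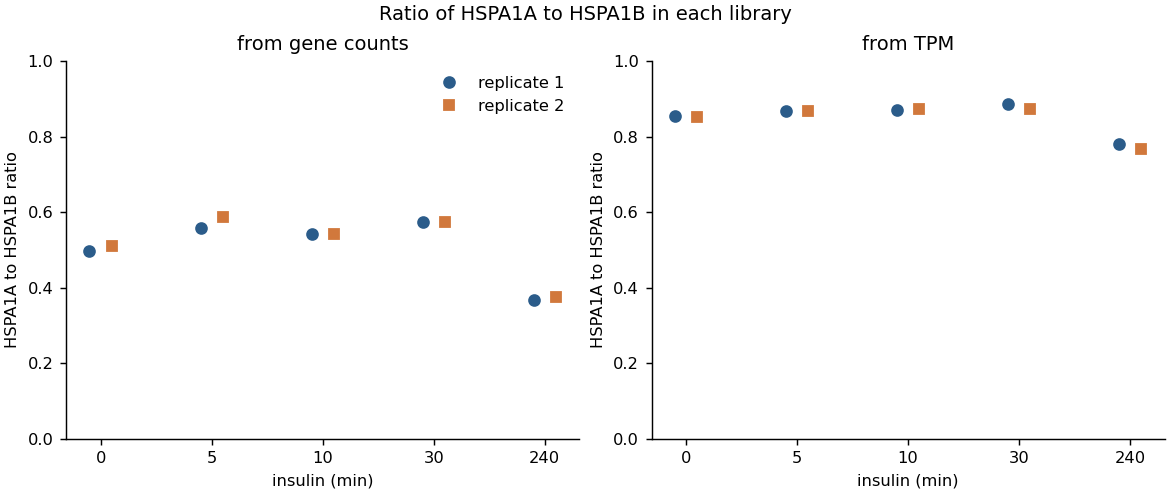
Ratio of HSPA1A to HSPA1B in each library at each time of insulin in min, from gene counts (left) and from TPM (right), 1 point per library on linear axes from 0 to 1. The 240 min libraries were lowest in both panels, at 0.368 and 0.376 from counts and 0.780 and 0.768 from TPM.

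HSPA8 (chr11:122928200-122933043, minus strand), the constitutive HSP70, was at 1377 and 1356 CPM at 0 min, 1345 and 1358 CPM at 5 min, 1299 and 1412 CPM at 10 min, 1287 and 1375 CPM at 30 min, and 1231 and 1276 CPM at 240 min. Both 240 min libraries were the lowest of the 10. The difference from 0 min was -0.12 (95% interval -0.24 to -0.01) and did not pass the adjusted test (adjusted p = 0.0732, edgeR), although it passed with DESeq2 and without the filter on low counts. Of its 50-base windows, 23.2% occur elsewhere in the genome.

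HSPH1 (chr13:31709111-31736525, minus strand) releases nucleotide from HSP70 and acts in disaggregation. It was at 281 and 280.2 CPM at 0 min, 283 and 288 CPM at 5 min, 257 and 280.1 CPM at 10 min, 248 and 281 CPM at 30 min, and 190.3 and 207 CPM at 240 min. The 240 min libraries lay below all others. HSPH1 differed from 0 min by -0.50 (SE 0.060, adjusted p = 2.51e-06, edgeR), and no single library ended the call. This is also the member least affected by repeated sequence apart from BAG3, with 0.212% of its windows found elsewhere.

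BAG3 (chr10:121410882-121437329, plus strand) links HSP70 to small heat shock proteins. Its level was 31.6 and 29.5 CPM at 0 min, 29.3 and 27.5 CPM at 5 min, 27.99 and 29.8 CPM at 10 min, 28.2 and 26.5 CPM at 30 min, and 24.7 and 26.1 CPM at 240 min. The 240 min libraries were the lowest, close to the second 30 min replicate. The difference from 0 min was -0.26 (SE 0.072, adjusted p = 0.00683, edgeR), and it was no longer called without the first 0 min replicate (-0.22, adjusted p = 0.0548) or the first 240 min replicate (-0.22, adjusted p = 0.0799).

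DNAJB1, the J-domain protein HSP40 (chr19:14625576-14629371, minus strand), was not called against 0 min. It was at 188 and 187 CPM at 0 min, 179 and 172 CPM at 5 min, 179 and 185 CPM at 10 min, 178 and 179 CPM at 30 min, and 188 and 208 CPM at 240 min. The second 240 min replicate was the highest of the 10, and the first lay between the 0 min replicates. Against 0 min the difference was 0.08 (95% interval -0.03 to 0.19, adjusted p = 0.234, edgeR), and under spike-in scaling it was -0.04.

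HSP90AA1 (chr14:102547075-102606086, minus strand) was at 1774 and 1717 CPM at 0 min, 1722 and 1766 CPM at 5 min, 1704 and 1802 CPM at 10 min, 1668 and 1732 CPM at 30 min, and 1433 and 1479 CPM at 240 min. The early libraries stayed within a 1.08-fold range, and both 240 min libraries lay below it. The difference from 0 min was -0.26 (SE 0.051, adjusted p = 4.51e-04, edgeR). Of its windows, 24.6% occur elsewhere in the genome.

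HSPB1 (chr7:75931875-75933614, plus strand) holds misfolded proteins until HSP70 takes them over. It was at 35.0 and 36.7 CPM at 0 min, 33.8 and 27.9 CPM at 5 min, 32.4 and 35.1 CPM at 10 min, 34.8 and 36.4 CPM at 30 min, and 25.3 and 26.9 CPM at 240 min. The second 5 min replicate came close to the 240 min libraries, which were the lowest. The difference of 240 min from 0 min was -0.47 (SE 0.081, adjusted p = 1.27e-04, edgeR). That of 5 min from 0 min was -0.22 (unadjusted p = 0.0127, adjusted p = 0.270, edgeR).

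The mitochondrial chaperonin genes share a bidirectional locus on hg19: HSPD1 at chr2:198351308-198364998 on the minus strand and HSPE1 at chr2:198364721-198368187 on the plus strand. HSPD1 was at 1509.6 and 1514 CPM at 0 min, 1513 and 1607 CPM at 5 min, 1501 and 1570.5 CPM at 10 min, 1489 and 1486 CPM at 30 min, and 1582 and 1425 CPM at 240 min. The 240 min replicates lay on both sides of those at 0 min. Their difference from 0 min was -0.01, with a 95% interval of -0.13 to 0.11 (adjusted p = 0.924, edgeR).

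HSPE1 was at 72.7 and 64.2 CPM at 0 min, 68.2 and 54.6 CPM at 5 min, 68.6 and 64.3 CPM at 10 min, 63.1 and 60.1 CPM at 30 min, and 51.2 and 64.7 CPM at 240 min. The 240 min replicates lay apart, and the second was above the second 0 min replicate. By counts the difference from 0 min was -0.24 (95% interval -0.44 to -0.04, adjusted p = 0.0516, edgeR), and by TPM it was 0.03. The HSPE1 gene body is contained in that of the readthrough transcript HSPE1-MOB4, which had 0 counts in all libraries. How reads that overlap both genes were counted is not given in the sources used here. The 0 counts therefore do not show that the readthrough transcript was absent or that HSPE1 kept all its reads. The ratio of HSPE1 to HSPD1 was 0.0324 to 0.0482 by counts and 0.227 to 0.253 by TPM, which unlike the counts is scaled for transcript length. In the first 240 min replicate the ratio was lowest by counts, at 0.0324, but near the highest by TPM, at 0.252. The cause of this difference between the scales was not tested. Of the windows, 41.3% of HSPD1 and 37.2% of HSPE1 occur elsewhere in the genome.

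Read against all genes, 240 min against 0 min was a broad change: 41% of the 13852 genes tested passed in either direction, 20.4% lower and 20.6% higher. Of the 10 heat shock genes 6 passed lower and 0 higher. The median log2 fold change of the members was -0.25, and that of all genes tested was -0.003. Both 240 min libraries lay below the 8 others for 6 members, HSPA1A, HSPA8, HSP90AA1, HSPH1, BAG3 and HSPB1, and for 21.3% of all genes. Scaling by the ERCC spike-in totals, which took 1.59% to 2.36% of counts, lowered the median of all genes to -0.12 at 240 min. It lowered that of the members to -0.37. Under that scaling HSPA1A (-0.79), HSPH1 (-0.62) and HSPB1 (-0.58) still passed, HSP90AA1, BAG3 and HSPA1B did not, and of all calls 31.3% were higher, against 50.2% under TMM scaling.

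The earlier times differed little. The background was 0% of genes at 5 min, 0.137% at 10 min and 0.332% at 30 min against 0 min, and 0.00722% at 30 min against 10 min. In each of these comparisons 0 members passed with edgeR, and 0 passed with DESeq2. At an unadjusted p under 0.05 there was 1 member at 5 min (HSPB1), 1 at 10 min and 1 at 30 min (HSPA1B in both), and 0 at 30 min against 10 min. The shares of all genes under that unadjusted threshold were 14.3%, 5.13%, 8.12% and 3.91%, so that 1 of 10 members was near the background.

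The comparison of 240 min with 30 min, which shares the 240 min libraries with the one against 0 min, asked whether the members moved in the later interval. Here 38.2% of genes passed, 18.4% lower and 19.8% higher, and among the members 4 fell and 1 rose. HSPA1A fell by 0.68 on the log2 scale (SE 0.077, adjusted p = 9.95e-07, edgeR), HSPB1 by 0.45 (SE 0.083), HSPH1 by 0.41 (SE 0.061) and HSP90AA1 by 0.22 (SE 0.052). By TPM the HSPA1A difference was -0.43. DNAJB1 rose by 0.15 (SE 0.052, adjusted p = 0.0251, edgeR), and was no longer called without either 30 min replicate (0.15 in both fits) or without the second 240 min replicate (0.08), nor when only these 2 times were fitted (0.14, adjusted p = 0.0810, edgeR). Under spike-in scaling HSPA1A was the 1 member that passed in this interval. BAG3 (-0.11) and HSPA1B (-0.06) did not pass in this interval by counts, and HSPA1B passed by TPM (-0.25).

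**Figure D3:**
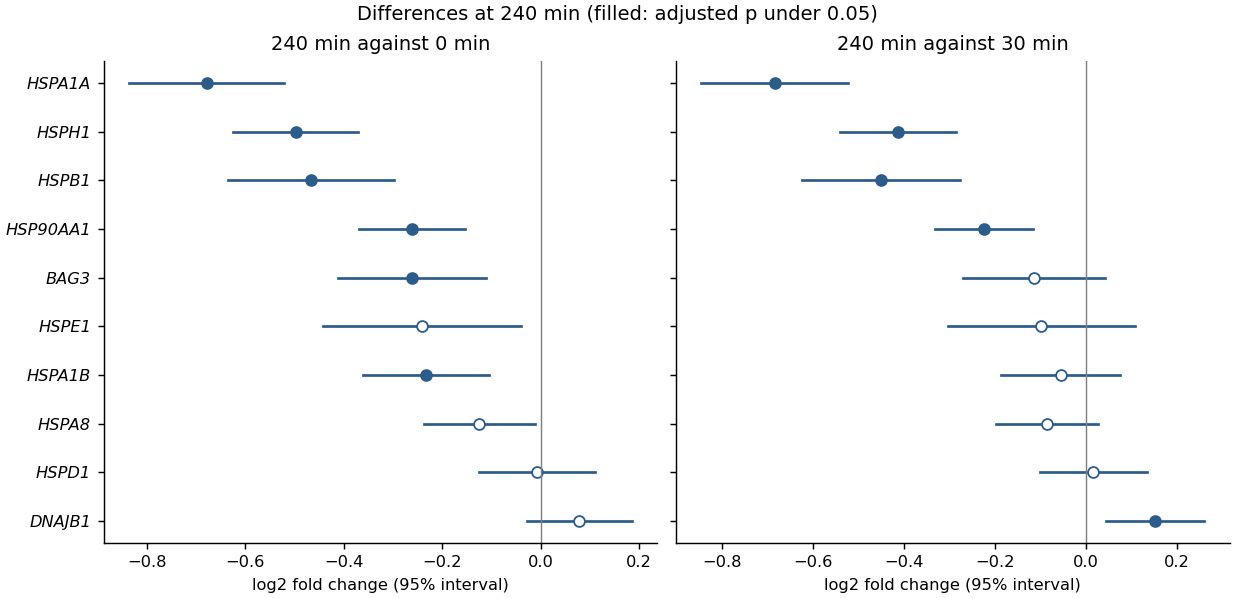
Log2 fold changes with 95% intervals from the edgeR model for 240 min against 0 min (left) and against 30 min (right), 1 row per gene, filled where the adjusted p was under 0.05. HSPA1A lies lowest in both panels at -0.68, and DNAJB1 lies highest, at 0.08 and 0.15.

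The wider chaperone network was described with 8 lists of 79 genes outside the group, of which 72 were tested. At 240 min against 0 min 17 rose (23.6%) and 15 fell (20.8%), near the shares for all genes, and the median log2 fold change was 0.00805. The regulators of the group moved in opposite directions. HSF1, the main activator of heat shock genes, fell from 39.8 ± 0.081 to 31.9 ± 3.45 CPM (SD, n = 2, log2 fold change -0.32, adjusted p = 0.00132, edgeR). HSF2, a related factor, rose from 26.6 to 33.99 CPM (0.35, adjusted p = 6.87e-04, edgeR). HSF4 was at 0.20 and was not called (SE 0.37).

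The other HSP90 genes and co-chaperones had 8 calls, with 7 of 13 tested lower and 1 higher and a median of -0.27. The falls included CHORDC1 (-0.71), SUGT1 (-0.65), both HSP90 partners with a CS domain, and AHSA2 (-0.48), a homolog of the HSP90 ATPase activator. FKBP5, an immunophilin that is also a glucocorticoid receptor target, rose from 95.7 ± 7.39 to 139 ± 4.75 CPM (SD, n = 2, 0.54, adjusted p = 5.23e-07, edgeR). The constitutive HSP90AB1 was at -0.11 and did not pass (adjusted p = 0.0799, edgeR).

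Other HSP70 and HSP110 genes gave 2 rises and 0 falls among 7 tested, HSPA12A (0.85) and HSPA14 (0.44), a ribosome-associated HSP70. Among 9 J-domain genes 3 rose, DNAJB5 (0.57), DNAJC2 (0.46) and DNAJC8 (0.19), and 4 fell, the largest falls being DNAJB4 (-0.56), DNAJB6 (-0.45) and DNAJB2 (-0.23). Of 8 nucleotide exchange factors and other HSP70 partners, BAG1 (0.49), BAG4 (0.42) and BAG5 (0.22) rose and BAG6 (-0.32) fell. BAG family proteins share a domain that binds HSP70, and BAG3 among the members fell.

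Of 15 other mitochondrial chaperones and proteases, 3 rose and 1 fell. The rises were GRPEL2 (0.50) and GRPEL1 (0.29), the exchange factors of mitochondrial HSP70, and AFG3L2 (0.31), a protease of the inner membrane. The fall was HTRA2 (-0.27), an intermembrane space protease. Among 14 subunits of the cytosolic chaperonin TRiC and of prefoldin, 4 rose, led by VBP1 (0.25), PFDN2 (0.23) and CCT6A (0.20), and CCT4 fell (-0.20). None of the 3 other small heat shock protein genes tested passed at an adjusted p under 0.05 with edgeR, and 1 had an unadjusted p under 0.05, as did 48.7% of all genes tested.

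**Figure D4:**
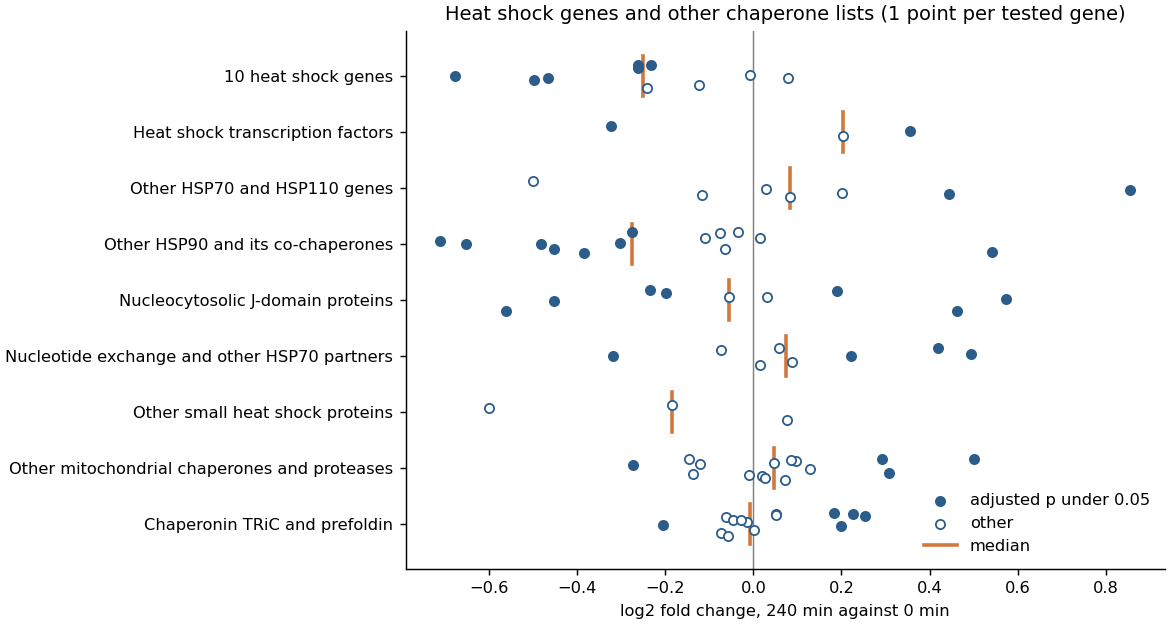
Log2 fold change of 240 min against 0 min for each tested gene (1 point per gene, spread vertically at random within its list), filled where the adjusted p was under 0.05, with the median of each list as a bar. The medians of the 10 heat shock genes, -0.25, and of the other HSP90 genes and co-chaperones, -0.27, lie left of 0, and HSPA12A lies farthest right at 0.85.

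Outside the group and the lists, the genes whose levels followed the mean standardized log2 CPM of the members most closely over the 10 libraries were IL6R (Pearson r = 0.984), RHPN2 (0.968), ITGA10 (0.963), PLCH2 (0.958) and HERPUD1 (0.958). These correlations are descriptions, since the libraries share 1 normalization. IL6R, the interleukin-6 receptor, was at 42.7 CPM at 0 min and 26.97 CPM at 240 min. HERPUD1, a protein of degradation at the endoplasmic reticulum, was at 90.2 and 70.1 CPM.

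The IR ChIP-seq list held 1971 peaks on hg19, called by the authors with MACS2 in 1 library, so there was no replicate and no test. A peak within a gene body extended by 5 kb was found for 1 of the 10 members, HSPH1, against 15.7% of the 13852 genes tested. The other 9 had none, also with an extension of 20 kb. The HSPH1 peak covered 825 bases at chr13:31736075-31736899 and had a score of 1042 (rank 139 of 1971, median score 79). HOMER annotated it as promoter, with its centre 423 bases upstream of the start HOMER used. The listed start of HSPH1, chr13:31736525, lies inside the peak, which thus covers part of the gene body.

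The peak held 1 heat shock element of 3 units, at chr13:31736088-31736100, 13 bases inside its edge of lower coordinates and 393 bases from its centre. The element lies 24 to 36 bases upstream of the start HOMER used. It also lies 425 bases downstream of the start inside the peak, from which the RefSeq window above was taken. No annotated exon covers it, and it lies in an intron of the longer HSPH1 transcripts. Over all 1971 peaks set to 825 bases around their centres, 0.812% held such an element. The 167 bases upstream of the start HOMER used are shown for this reason, with the element in capitals, 5′ to 3′ on the minus strand of GRCh37.

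HSPH1, chr13:31736065-31736231, minus strand: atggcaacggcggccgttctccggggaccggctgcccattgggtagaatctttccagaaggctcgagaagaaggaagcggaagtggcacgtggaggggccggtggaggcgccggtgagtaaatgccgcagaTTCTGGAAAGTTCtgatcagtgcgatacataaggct

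The peak list describes IR binding and the RNA-seq describes levels in other libraries of the same line. The 1 member with a peak, HSPH1, was among the 6 that fell at 240 min, and the other 5 had no peak within 20 kb. With 1 such gene, whether the peak and the fall are related was not tested.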

How the data were processed

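RNA-seq of HepG2 cells was analysed from gene counts, which the authors made with Trim Galore 0.6.4, STAR 2.6.1d and featureCounts 1.6.4 on hg19 (reverse-stranded, 50-base single-end reads) and deposited without normalization. The authors also deposited StringTie abundances as TPM and, for 1 IR ChIP-seq library, MACS2 peaks with a score each, annotated by HOMER. The members and lists were chosen with earlier results of these data known.

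Here counts were tested with edgeR 4.0.16 (TMM, filterByExpr, quasi-likelihood test, 1 model of 10 libraries, adjustment over 13852 genes) in R 4.3.3. Libraries held 18347109 to 45005769 gene counts. The 92 ERCC rows (1.59% to 2.36% of counts) have no gene name and stayed out. Each standard error is the fold change divided by the root of F. The test was tested on simulated data. The alternatives were DESeq2 1.42.0, other scalings and filters, limma 3.58.1 on log2 TPM with a pseudocount of 1 or 0.1 and with a filter at a mean TPM of 1, a replicate block, the summed HSP70 pair, and each library left out. Intervals cover the spread between these libraries.

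Named genes are the 10 members, HSF1 and HSF2, up to 3 called rises and 3 falls per list, and the 5 genes most like the members. HSF4, HSP90AB1 and the cell markers were named as well, after their values were seen. Promoters came from RefSeq (GRCh38.p14), and repeated 50-base windows from GRCh37 with GENCODE transcripts. Biopython 1.88 aligned the HSPA1A and HSPA1B windows. IR peaks were counted in gene bodies extended by 5 kb, with 1 kb, 20 kb, the HOMER gene and scores above the median as alternatives. The ChIP input was not used here.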

Additional observations from a re-analysis of the deposited data

Results flagged for a closer look

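A total of 5 members differed between the effect at 240 min and the effect at 30 min, both set against 0 min, which is the test of 240 min against 30 min in edgeR with adjustment over all genes tested. In the same comparison 38.2% of all genes tested were called. The log2 difference was -0.68 for HSPA1A (adjusted p = 9.95e-07), -0.45 for HSPB1 (adjusted p = 2.32e-04), -0.41 for HSPH1 (adjusted p = 2.31e-05), -0.22 for HSP90AA1 (adjusted p = 0.00188) and 0.15 for DNAJB1 (adjusted p = 0.0251).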

How the results depend on the processing

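Scaling by ERCC spike-in totals was the alternative that moved a count of called members by more than 1.5 times. It left 3 members at 240 min against 0 min (HSPA1A, HSPH1 and HSPB1) in place of 6, and 1 member at 240 min against 30 min (HSPA1A) in place of 5. It also called 1059 genes at 240 min against 0 min, against 5676 by TMM. The cause was not tested. With a library left out in turn, the count of members was 4 to 7 at 240 min against 0 min and 4 to 5 at 240 min against 30 min; a time left with 1 library was assumed to vary like the others. Of 1248 values of single members under the alternatives, 15 lost and 14 gained a call, 90 that were not called moved by more than their standard error, and 65 had the other sign, 0 of them among calls. HSPE1 at 240 min against 0 min was called in 4 of 11 alternatives and 4 of 10 fits without a library. The differences between replicates 1 and 2 correlated at -0.115 to 0.133 between times, so no large shared replicate effect was seen. These values cannot show whether the replicate numbers pair the samples. A replicate block gave 7 members and 5845 genes at 240 min against 0 min. At 5, 10 and 30 min against 0 min no alternative called a member, while no filter on low counts called 144, 74 and 160 genes in place of 0, 19 and 46. The count of members with an IR peak was 1 under all 4 alternatives.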
